A study of Mus musculus with 8 samples.

Results

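The 50 genes described here encode nucleolar factors that build ribosomes. They were taken by gene symbol from a deposited table of 24787 rows, and all 50 have a row in it. The list follows known functions, but it was chosen by results of these same libraries already being known, namely the coverage in the control and Etv5 shRNA columns. The differences between those groups are therefore given as descriptions, also where an adjusted p stands beside them. The genes fall into 6 role groups. They are 3 proteins of box C/D small nucleolar ribonucleoproteins (snoRNPs), 4 grouped with box H/ACA snoRNPs and 3 multifunctional nucleolar proteins. The others are 22 factors of the small subunit, 15 of the large subunit and 3 subunits of RNA polymerase I. Nolc1, counted in the box H/ACA group, is a protein that binds snoRNPs.

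RNA was sequenced from 4T1, an established mouse mammary carcinoma line, in 8 libraries. A control shRNA was carried by 4 of them (genotype labelled WT) and an shRNA against Etv5 by the other 4 (labelled Etv5 knockdown). Etv5 encodes an ETS-family transcription factor. The column names give each group a single construct name, so other Etv5 shRNAs were not analysed here. Whether the replicates came from separate cultures is not in the labels, and p-values measure only the spread between these libraries, which may be technical. The cells were cultured, and RNA was taken with TRIzol or a purification kit, with no record of which was used for a given library; libraries were made with a TruSeq kit and run on a NovaSeq. In bulk RNA, fewer cells of a type and less RNA per cell cannot be told apart.

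Ribosome synthesis starts when RNA polymerase I transcribes a long precursor of the ribosomal RNAs in the nucleolus. The snoRNPs modify this precursor and help to fold it, the small subunit processome assembles on its early part, and a separate set of factors matures the large subunit. These genes are known as targets of MYC and are usually active in growing tumour cells.

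As far as the deposited values show, each is the average coverage over the bases of a gene after scaling for depth (coverage value), so levels of different genes are compared per length. All 8 markers of mammary carcinoma cells passed the filter described below, with Epcam between 91.6 and 124. Of 8 leukocyte, 6 fibroblast and 4 endothelial markers 1, 1 and 0 passed it, namely Cd68 (2.89 to 4.43) and Pdgfra (0.519 to 3.54), and Cd3e, Adgre1, Dcn and Lum were at 0 in every library. Etv5 itself was at 14.1 ± 1.65 (SD, n = 4) in the controls and 11.1 ± 2.52 (SD, n = 4) with its shRNA, with overlapping groups (exact two-sided permutation test, p = 0.0857). Etv5 was at 13, 11.2 and 12.7 in Etv5 shRNA libraries 1, 2 and 4, and at 11.7 to 15.2 in the controls. The groups thus overlapped without library 3 too, with a smaller gap between them. The lowest Etv5 value, 7.52, was in Etv5 shRNA library 3, which also differed from the rest in other ways. Its values summed to 390495, against 254792 to 308393 in the others, its median tested gene lay 0.49 below the control mean on the log2(value + 1) scale, and long transcripts were low in it. Results are therefore given with it and without it.

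All 50 factors were expressed and passed the filter, which was a value of at least 0.5 in at least 4 libraries. Npm1, which encodes nucleophosmin, had the highest control mean, at 337 ± 70.6 (SD, n = 4), followed by Ncl (nucleolin) at 138 ± 10.7 (SD, n = 4). The box C/D proteins Nop58 and Nop56 came next, at 92.2 ± 3.23 and 80.5 ± 4.75 (SD, n = 4 each). The lowest was Polr1e, an RNA polymerase I subunit, at 2.98 ± 0.39 (SD, n = 4), and Heatr1, Rrp12, Noc3l, Utp20 and Polr1b were also below 10.

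The levels of most factors were modestly higher in the Etv5 shRNA libraries. Over 8 libraries the median log2 fold change of the 50 was 0.20, against -0.11 for all 11731 genes tested, and it was positive for 44 of 50. None of the 50 passed the limma test over 8 libraries at an adjusted p under 0.05, where 0.00852% of all genes were called higher and 0.486% lower; at an unadjusted p under 0.05 by limma there were 7 of the 50 and 832 of 11731 (7.09%). With Etv5 shRNA library 3 left out, 13 rose and none fell by limma, where 1.09% of 11685 genes were called higher and 2.06% lower. At an unadjusted p under 0.05 there were then 26, beside 18.8% of all genes. The median log2 fold change of the 50 was then 0.22, against -0.0022 for all genes, and 45 were positive. Over the other settings with all 8 libraries, between 37 of the 50 (every library scaled to an equal sum) and 49 (quality weights) were positive.

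The number of calls changed when 1 more library was left out, in fits that also had fewer libraries. When control library 1 or 2 or Etv5 shRNA library 1 or 2 was left out as well, none of the 50 was called by limma. Over all genes 29, 18, 11 and 15 of 11574 to 11628 were then called higher, against 127 of 11685 before. At an unadjusted p under 0.05 by limma there were 24, 24, 21 and 23 of the 50, beside 15.9%, 13.6%, 12.3% and 12.4% of all genes. Leaving out control library 3 or 4 or Etv5 shRNA library 4 in addition gave 18, 8 and 7 called higher, beside 3.59%, 0.544% and 0.413% of all genes. The median log2 fold change of the 50 stayed between 0.21 and 0.26 in these 7 fits, and between 43 and 47 of the 50 were positive.

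Because Etv5 encodes an ETS factor, the start regions of the 50 genes were searched for an ETS motif on both strands. RefSeq windows around the start of a gene were matched for 42 of the 50 genes, in 47 windows on GRCm38.p6. CCGGAAGT was present in 13 of 47 windows (27.7%), against 8.65% of 11430 windows of tested genes and 3.89% of all 32851 windows. The E-box CACGTG, the motif bound by MYC, was in 17.0% of the 47, 10.3% of windows of tested genes and 7.15% of all. GC content had a median of 59.7% in the windows of the 50, 61.3% in those of tested genes and 52.7% in all.

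The ETS motif was found in 3 of 11 matched factors that were called without Etv5 library 3 (Utp4, Ltv1 and Nol10) and in 9 of 31 that were not. The 120 bases before the RefSeq start are printed for those 3 and for Bms1 and Nhp2, which hold the motif. GENCODE M21 starts these genes further upstream, inside the printed stretches. For Nhp2 that start, at 51619735, lies before the motif, so the motif is inside the gene as annotated there. Without Etv5 library 3 Bms1 and Nhp2 had log2 fold changes of 0.04 and 0.08. The other uncalled factors with the motif were Heatr1 (0.46), Tsr1 (0.30), Noc2l (0.22), Polr1e (0.21), Brix1 (0.17), Gar1 (-0.02) and Utp3 (-0.15), so not all were near 0. Sequences are RefSeq, GRCm38.p6, 5′ to 3′ on the strand of the gene, and capitals mark CCGGAAGT or its reverse complement.
Utp4 (chr8:106893520-106893639, plus strand): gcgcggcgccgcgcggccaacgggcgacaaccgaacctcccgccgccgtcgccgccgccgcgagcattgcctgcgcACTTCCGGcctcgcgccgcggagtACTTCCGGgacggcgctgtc
Ltv1 (chr10:13193138-13193257, minus strand): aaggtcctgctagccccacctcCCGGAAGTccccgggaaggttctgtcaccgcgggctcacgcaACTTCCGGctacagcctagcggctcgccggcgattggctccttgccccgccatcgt
Nol10 (chr12:17348373-17348492, plus strand): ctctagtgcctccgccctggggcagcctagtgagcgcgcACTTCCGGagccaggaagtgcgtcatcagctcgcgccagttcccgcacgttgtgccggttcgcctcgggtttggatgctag
Bms1 (chr6:118419418-118419537, minus strand): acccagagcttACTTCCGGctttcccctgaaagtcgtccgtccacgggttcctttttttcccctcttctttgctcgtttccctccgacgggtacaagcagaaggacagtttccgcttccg
Nhp2 (chr11:51619653-51619772, plus strand): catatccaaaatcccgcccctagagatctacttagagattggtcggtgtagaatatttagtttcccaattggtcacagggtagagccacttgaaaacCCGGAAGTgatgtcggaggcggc

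Utp4 and Ltv1 each hold 2 copies of the motif in this stretch and Nol10, Bms1 and Nhp2 hold 1. Utp4 and Ltv1 also hold the E-box, shortly after the start. A match to these letters is a description of the sequence, not a sign that a factor binds there.

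**Figure D1:**
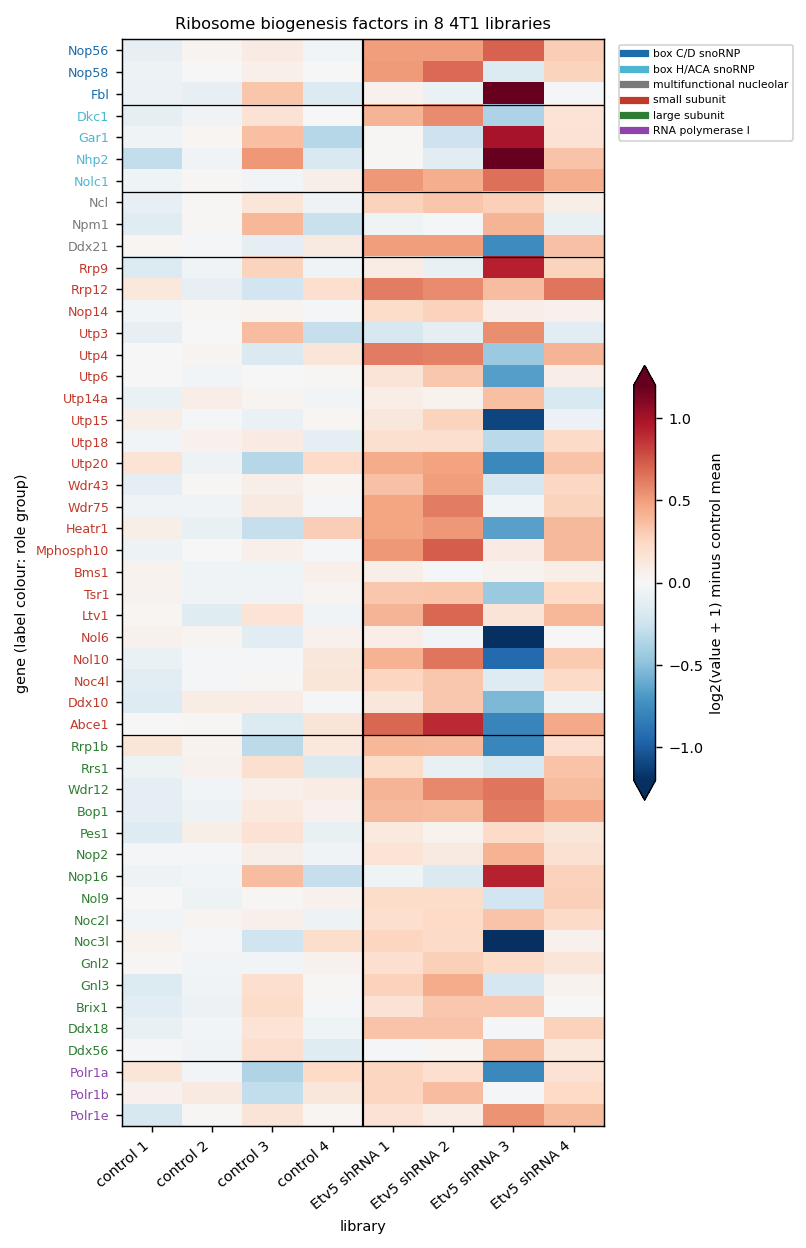
Each row is 1 of the 50 ribosome biogenesis factors and each column 1 library; colour gives log2(value + 1) minus the mean of the 4 controls, with values past 1.2 in either direction shown in the end colours, and label colour gives the role group. Etv5 shRNA libraries 1, 2 and 4 are mostly above the control mean, and library 3 holds both the highest and the lowest values.

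In each library the median factor was set against the median of all tested genes, both as log2(value + 1) minus the control mean. The difference between the medians was -0.06, -0.02, 0.08 and 0.00 in control libraries 1 to 4. It was 0.24, 0.33, 0.50 and 0.24 in Etv5 shRNA libraries 1 to 4, so that all 4 lay above all 4 controls on this measure. The controls were measured against their own mean, which holds them near 0, and the list was chosen with these values known. The separation is therefore a description. In Etv5 shRNA library 3 the factors themselves had a median of 0.01, close to the controls, and all genes a median of -0.49. Etv5 shRNA libraries 1, 2 and 4 held 39, 35 and 31 of the 50 above every control, while 25%, 26.9% and 18.3% of all tested genes were above every control. Library 3 held 23 above every control and 22 below every control, beside 23.8% and 65.4% of all tested genes.

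**Figure D2:**
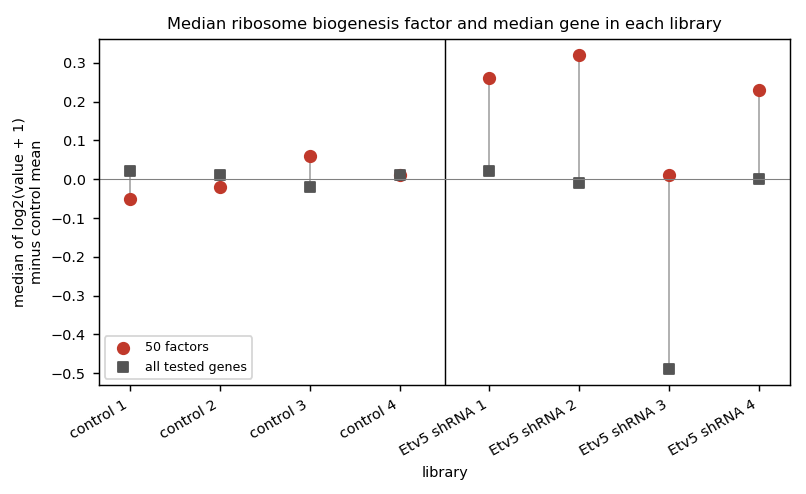
Circles give the median over the 50 factors and squares the median over all tested genes, each as log2(value + 1) minus the control mean, for the 8 libraries on the x axis. The circle lies 0.24 to 0.50 above the square in the Etv5 shRNA libraries and within 0.08 of it in the controls.

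In 10 of the 50 factors every Etv5 shRNA library, library 3 included, was above every control. This was the case for 1.52% of all tested genes. The 10 are the snoRNP proteins Nop56 and Nolc1, the small subunit factors Rrp12, Nop14 and Mphosph10, and the large subunit factors Wdr12, Bop1, Nop2, Noc2l and Gnl2. Without Etv5 library 3 the number was 28, beside 9.76% of all tested genes. In no factor was every Etv5 shRNA library below every control, with or without library 3, beside 7.58% and 10.4% of all tested genes.

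Among box C/D proteins, which hold the guide RNAs for ribose methylation, the core proteins Nop56 and Nop58 rose without Etv5 shRNA library 3 and the methyltransferase Fbl did not. Nop56 was at 75.1, 82.0, 86.2 and 78.7 in controls 1 to 4 and at 114, 114, 132 and 99.1 in Etv5 shRNA libraries 1 to 4. The groups did not overlap, and Etv5 library 3 was the highest. The mean was 1.35-fold higher without that library, with a log2 fold change of 0.43 (SE 0.0941) and an adjusted p of 0.0425 by limma (0.00556 to 0.225 over the 11 fits without it). Of the 50-base stretches of the longest coding transcript of Nop56, 37.6% also occur in other annotated genes, so part of its coverage is uncertain.

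Nop58 was at 88.3, 91.8, 96.2 and 92.7 in the controls and at 132, 148, 82.1 and 111 with the Etv5 shRNA. Etv5 shRNA library 3 was below every control and the other 3 above. Without it the log2 fold change was 0.49 (SE 0.109, adjusted p 0.0448 by limma, 0.0140 to 0.214 over the 11 fits), and over 8 libraries 0.32 (adjusted p 0.836 by limma). Fbl had values of 44.9, 44.1, 60.0 and 42.1 in the controls and 48.9, 44.6, 133 and 46.4 with the Etv5 shRNA. Its log2 fold change of 0.35 over 8 libraries was -0.02 without Etv5 library 3, and 73.0% of its 50-base stretches also occur in other annotated genes.

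The box H/ACA group holds the pseudouridine synthase dyskerin (Dkc1), its partners Gar1 and Nhp2, and Nolc1, a nucleolar phosphoprotein that binds snoRNPs. Nolc1 was at 35, 36.8, 35.4 and 38.2 in the controls and at 52.4, 49.4, 58.2 and 49.4 with the Etv5 shRNA. It had the lowest adjusted p of the 50 in both fits, 0.166 over 8 libraries and 0.0141 without Etv5 library 3 by limma (0.00152 to 0.122 over the 11 fits), with log2 fold changes of 0.51 and 0.46. Its groups were separated by a wide gap, and none of its 50-base stretches occur in another annotated gene.

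Dkc1 was at 24.5, 25.9, 30.3 and 26.6 in the controls and at 35.7, 40.2, 20.5 and 30 with the Etv5 shRNA. The groups overlapped through Etv5 shRNA libraries 3 and 4, and Dkc1 did not pass the test in either fit (adjusted p 0.879 and 0.117 by limma). Nhp2 was at 53.3, 63.5, 94.1 and 57.5 in the controls and at 66.1, 59.9, 312 and 83.4 with the Etv5 shRNA. Its log2 fold change, 0.62 over 8 libraries and the largest of the 50, was 0.08 without Etv5 library 3. Gar1 showed the same pattern, at 0.23 and -0.02.

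Of the multifunctional proteins, the RNA helicase Ddx21, which is found at both RNA polymerase I and II genes, rose without Etv5 library 3. It was at 44.5, 43.3, 40.5 and 47.2 in the controls and at 62.3, 62.6, 25.5 and 56.3 with the Etv5 shRNA. Only Etv5 shRNA library 3 was below the controls. The log2 fold change was 0.45 without it (SE 0.0871, adjusted p 0.0274 by limma, 0.00213 to 0.160 over the 11 fits) and 0.15 with it.

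Ncl was at 129, 139, 153 and 132 in the controls and at 167, 174, 168 and 145 with the Etv5 shRNA. The groups overlapped only through control library 3 and Etv5 shRNA library 4, and the log2 fold change was 0.24 over 8 libraries and 0.22 without Etv5 library 3 (adjusted p 0.819 and 0.298 by limma). Npm1, the most abundant factor, was at 300, 335, 436 and 275 and at 319, 325, 440 and 312. The groups overlapped, its log2 fold change was 0.06 over 8 libraries but -0.03 with equal sums, -0.07 with quantile normalisation and -0.06 without Etv5 library 3, and 40.9% of its 50-base stretches also occur in other annotated genes.

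The small subunit group was the largest and held 7 of the 13 calls without Etv5 library 3. Of its 22 factors 20 had positive log2 fold changes in that fit, with a median of 0.28 and a range from -0.15 for Utp3 to 0.68 for Abce1. Over 8 libraries the median was 0.14 and 18 were positive, with no call. The 7 were Abce1, Rrp12, Mphosph10, Utp4, Ltv1, Nol10 and Wdr75.

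Abce1, an ATPase that splits ribosomes and acts on late small subunits, was at 47.2, 47.9, 42.1 and 52.8 in the controls and at 77.2, 88.8, 27.0 and 65.4 with the Etv5 shRNA. Etv5 shRNA libraries 1, 2 and 4 were above all controls and library 3 below all of them. Without Etv5 library 3 the mean was 1.63-fold higher (log2 fold change 0.68, SE 0.120, adjusted p 0.0179 by limma, 0.00141 to 0.103 over the 11 fits); with it the log2 fold change was 0.31 (adjusted p 0.879 by limma).

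Rrp12, which exports precursor subunits, was at 7.20, 6, 5.38 and 7.63 in the controls and at 10.5, 10.1, 8.72 and 10.7 with the Etv5 shRNA. All 4 Etv5 shRNA libraries were above all controls. Its log2 fold changes were 0.55 over 8 libraries (adjusted p 0.313 by limma) and 0.61 without Etv5 library 3 (adjusted p 0.0270 by limma, 0.00221 to 0.126 over the 11 fits). Mphosph10, a component of the U3 snoRNP complex, was at 11.5, 12.1, 12.6 and 11.9 in the controls and at 17.7, 20.5, 12.9 and 16.1 with the Etv5 shRNA. Here too the groups did not overlap, although Etv5 library 3 was only just above the highest control. The log2 fold changes were 0.43 (adjusted p 0.509 by limma) and 0.55 (adjusted p 0.0179 by limma, 0.00144 to 0.0949 over the 11 fits without Etv5 library 3).

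Utp4, a processome subunit whose upstream sequence with its ETS motifs is printed above, was at 28.8, 29.6, 25.6 and 32.2 in the controls and at 45.0, 44.6, 21.0 and 38.7 with the Etv5 shRNA. Etv5 shRNA library 3 was again below all controls. Without it the mean was 1.47-fold higher, at an adjusted p of 0.0226 by limma (0.00730 to 0.136 over the 11 fits).

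Ltv1, a late assembly factor of the small subunit, was at 13.2, 11.6, 14.6 and 12.5 in the controls and at 17.5, 21.5, 14.5 and 17.4 with the Etv5 shRNA. Nol10, a processome subunit, was at 9.71, 10.1, 10.1 and 11.4 and at 14.1, 16.6, 4.91 and 13.1. Wdr75, which also belongs to the processome, was at 16.2, 16.1, 18.0 and 16.4 and at 23.5, 26.1, 16.3 and 20.2. In all 3 genes Etv5 shRNA libraries 1, 2 and 4 were above every control and library 3 was not. They were 1.45-fold, 1.41-fold and 1.40-fold higher without Etv5 library 3, at adjusted p of 0.0402, 0.0432 and 0.0432 by limma (0.00679 to 0.198 for the 3 genes over the 11 fits).

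Several processome subunits had like values but were not called. Wdr43 was at 37.0, 40.3, 41.8 and 40.4 in the controls and at 51.1, 56.9, 34.4 and 47.4 with the Etv5 shRNA (log2 fold change 0.37, adjusted p 0.0668 by limma without Etv5 library 3). The processome subunits Heatr1 (0.46) and Utp20 (0.42) and the late small subunit factor Tsr1 (0.30) had log2 fold changes of this order with adjusted p of 0.0995, 0.132 and 0.0728 by limma, and 32.3% of the exon bases of Tsr1 overlap other genes, mainly Srr on the opposite strand. Bms1, a GTPase of the processome that also holds the motif, was level, at 14.0, 13.0, 13.0 and 14.2 in the controls and 14.3, 13.4, 14.0 and 14.3 with the Etv5 shRNA. Nol6, Utp14a and Rrp9 were at 0.02, -0.02 and 0.09 without Etv5 library 3, and Nop14, Utp6, Utp15, Utp18, Noc4l and Ddx10 between 0.11 and 0.27.

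**Figure D3:**
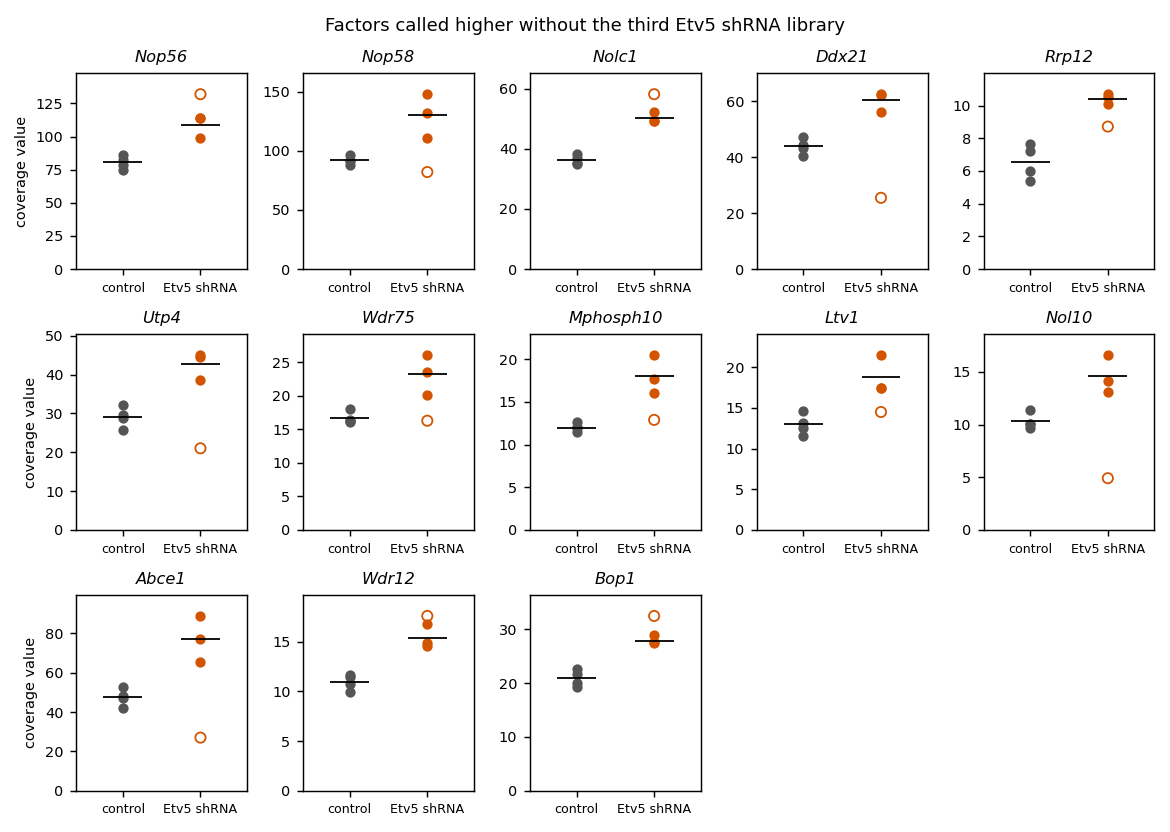
Coverage values of the 13 factors called higher by limma when Etv5 shRNA library 3 is left out, in control (grey) and Etv5 shRNA (orange) libraries; the open circle is Etv5 shRNA library 3 and bars are the means of the 4 controls and of the 3 filled circles. The open circle is above all controls in Nop56, Nolc1, Rrp12, Mphosph10, Wdr12 and Bop1, and below all controls in Nop58, Ddx21, Utp4, Nol10 and Abce1.

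Large subunit factors had a median log2 fold change of 0.21 in both fits, and all 15 were positive without Etv5 library 3. The calls among them were Bop1 and Wdr12, which form a complex with Pes1. Bop1 was at 19.3, 20, 22.7 and 21.7 in the controls and at 27.6, 27.4, 32.5 and 28.9 with the Etv5 shRNA. Wdr12 was at 9.99, 10.7, 11.5 and 11.7 and at 14.9, 16.8, 17.6 and 14.6. In both genes all 4 Etv5 shRNA libraries were above all controls, library 3 being the highest, and the means without it were 1.34-fold and 1.41-fold higher (adjusted p 0.0365 and 0.0310 by limma; 0.00432 to 0.165 and 0.00980 to 0.222 over the 11 fits).

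Pes1, the third protein of that complex, was at 32.8, 38.6, 41.5 and 34.5 in the controls and at 40, 37.7, 43.3 and 40.6 with the Etv5 shRNA. Its groups overlapped, its log2 fold change without Etv5 library 3 was 0.10, and 24.1% of its 50-base stretches occur in other annotated genes. Noc2l, which escorts precursor large subunits, was the most abundant large subunit factor, at 57.3, 60.3, 61.5 and 56.2 in the controls and 67.9, 69.4, 74.6 and 69.0 with the Etv5 shRNA. Its groups were separate, but the log2 fold changes of 0.25 and 0.22 did not pass the limma test (adjusted p 0.704 and 0.164); 20.9% of its exon bases overlap other genes, mainly Samd11 on the opposite strand.

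Gnl3, the GTPase nucleostemin, was at 37.4, 40.9, 48.5 and 42.5 in the controls and at 51.3, 57.8, 36.6 and 43.5 with the Etv5 shRNA. The groups overlapped and the log2 fold change was 0.26 without Etv5 library 3 (adjusted p 0.286 by limma). The helicase Ddx18 was at 0.32 (adjusted p 0.0866 by limma), with 62.7% of its 50-base stretches in other annotated genes, and Rrp1b at 0.33 (adjusted p 0.194 by limma). The methyltransferase Nop2, Gnl2, Nol9, Noc3l, Brix1 and Rrs1 were between 0.15 and 0.24. Nop16 and Ddx56 were at 0.02 and 0.04 in the same fit.

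No RNA polymerase I subunit was called by limma, and 0 of 3 over 8 libraries and 1 of 3 without Etv5 library 3 were at an unadjusted p under 0.05, beside 7.09% and 18.8% of all genes. Polr1a, the largest subunit, was at 11.9, 10.4, 8.07 and 12.7 in the controls and at 12.9, 12.4, 5.82 and 12.1 with the Etv5 shRNA. Polr1b, the second largest, was at 9.20, 9.6, 7.04 and 9.78 and at 10.8, 11.7, 8.67 and 10.6. Library 3 of either group was the lowest of its group in both genes. Without Etv5 shRNA library 3 the groups overlapped for Polr1a. For Polr1b the other Etv5 shRNA libraries were above every control, as in 9.76% of all tested genes. The log2 fold changes without Etv5 shRNA library 3 were 0.21 and 0.29 (adjusted p 0.431 and 0.217 by limma). Polr1e was at 0.21 (adjusted p 0.353 by limma). Over 8 libraries Polr1a was at -0.03, and it was positive under several other scalings, 0.12 with median-of-ratios scaling among them, which moved the median of all genes from -0.11 to 0.02.

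**Figure D4:**
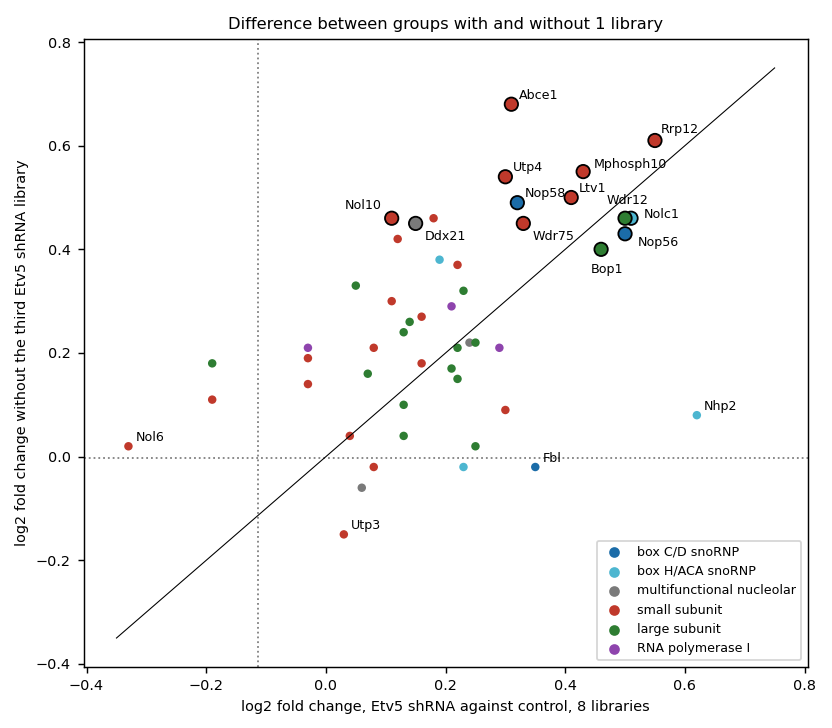
Each point is 1 factor, with its log2 fold change (Etv5 shRNA against control, on log2(value + 1)) over 8 libraries on the x axis and without Etv5 shRNA library 3 on the y axis; colour gives the role group, large outlined points are the 13 called by limma without that library, dotted lines are the medians of all tested genes and the diagonal marks equal values. Most points lie above the horizontal dotted line, and Nhp2 and Fbl, at 0.62 and 0.35 on the x axis, lie near 0 on the y axis.

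The departure of Etv5 shRNA library 3 from the others of its group followed transcript length. Over the 50 factors the rank correlation of that departure with the length of the longest coding transcript was -0.635, and over 11561 tested genes -0.636; the points share the same libraries, and no p is given. The 12 factors with the shortest transcripts, 1042 to 2075 bases, had a median departure of 0.58 on the log2 scale, and Nhp2, the shortest, had the largest, 2.16. The 12 with the longest, 4120 to 10012 bases, had a median of -1.04. The 4 highest of these 12 were Wdr12 (10012 bases) at 0.18, Ncl (8202) at 0.06, Bms1 (4345) at 0.00 and Rrp12 (4340) at -0.23. Which annotated transcript ends were in use was not examined.

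The same relation was present in control library 3, at a rank correlation of -0.756 with length over the 50 factors. How far Etv5 shRNA library 2 departed from libraries 1 and 4 of its group followed GC content, with rank correlations of -0.751 over the 50 factors and -0.648 over 11561 genes. Abce1, Nop58 and Mphosph10, with GC contents of 40.3%, 41.0% and 42.5%, were the highest in that library among their 8. With trends for both length and GC content removed and Etv5 shRNA library 3 left out, 23 factors were called higher and none lower by limma, where 6.01% of all genes were called higher, up from 1.09% without the correction. The 23 held 11 of the 13 named above, and the median log2 fold change of the 50 was 0.24. With the length trend alone removed and that library left out there were 18, beside 4.05% of all genes, again with 11 of the 13; Nop58 and Wdr12 were the exceptions in both fits.

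**Figure D5:**
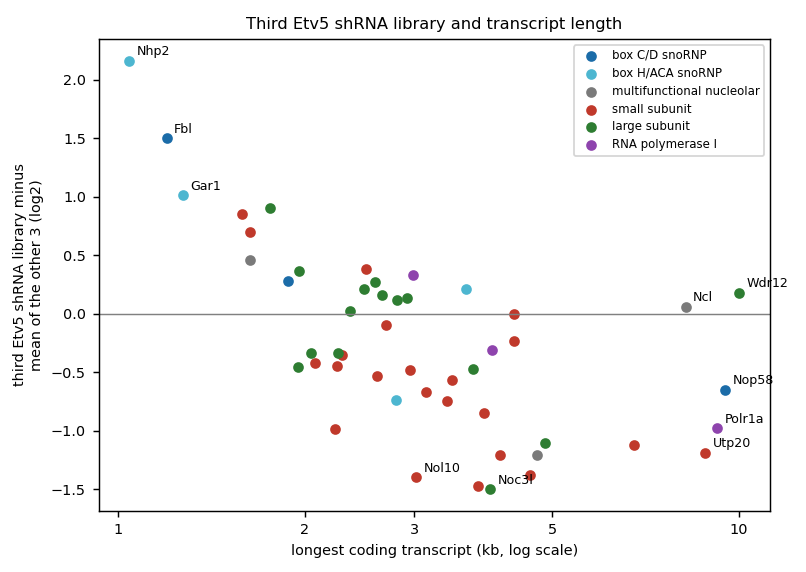
The x axis gives the length of the longest annotated coding transcript of each factor on a log scale, and the y axis the log2(value + 1) of Etv5 shRNA library 3 minus the mean of the other 3 libraries of its group. Points fall from 2.16 for Nhp2 on the left to about or below -1 for most of the long transcripts, with Wdr12, Ncl and Bms1 near 0 and Rrp12 at -0.23.

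Other genes of ribosome synthesis, outside the 50, were examined as a list of 133 symbols, of which 10 are other names of genes also listed and have no row. The remaining 123 were tested. Over 8 libraries none was called by limma (6 at an unadjusted p under 0.05, beside 7.09% of all genes), 95 had positive log2 fold changes and the median was 0.12. When Etv5 library 3 was left out, 1 rose and none fell by limma, where 1.09% of all genes were called higher and 2.06% lower. At an unadjusted p under 0.05 by limma there were 33, beside 18.8% of all genes. In that fit 95 were positive and the median was 0.13. The 1 called was Naf1, an assembly factor of box H/ACA snoRNPs, at 16.0, 13.3, 14.0 and 14.8 in the controls and 19.6, 20.5, 8.96 and 20 with the Etv5 shRNA (log2 fold change 0.44, adjusted p 0.0279 by limma, 0.00678 to 0.132 over the 11 fits). By role the medians without Etv5 library 3 were 0.18 for 47 further large subunit factors, 0.15 for 38 further small subunit factors, 0.10 for 12 snoRNP factors, 0.07 for 14 genes of the nuclear exosome and -0.01 for 12 further RNA polymerase I factors.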

How the data were processed

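RNA of 4T1 cells was measured in 8 libraries, grouped by sample title. STAR 2.7.10a and mm10 are named in the submitters' processing notes. The authors deposited a coverage signal per gene, whose columns are named after coverage tracks per the file headers; its size fits average coverage per base scaled for depth. How it was averaged and scaled, and with which annotation, is not given in the sources used here, and read depth is unknown. The comparison used limma 3.58.1 (R 4.3.3) on log2(value + 1) with an intensity trend, for genes that reached 0.5 in 4 libraries or more. Folds are ratios of mean coverage values. P-values were Benjamini-Hochberg adjusted over all genes tested and called under 0.05. In 5 simulated sets of 11731 genes with the spread of the 7 libraries other than Etv5 shRNA library 3, 93.1% of 200 genes changed by 1 on the log2 scale were recovered and 5.56% of calls were false. These sets had 4 libraries in each group and independent noise. With or without Etv5 shRNA library 3, no factor differed by more than 0.68 in the data. The 2 shares therefore do not give the power or the error rate of the fits reported here.

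Transcript lengths, shared 50-base stretches and exon overlaps came from GENCODE mouse release M21 (mm10). Length and GC trends were removed by lowess with a span of 0.3. The genes, lists and settings were chosen with earlier results of these data known. Genes described singly were, per role group, the 2 with the highest mean and the 2 with the largest difference without Etv5 shRNA library 3, up to 8 called without it, and up to 4 called genes of the wider pathway in each direction; others were added after their values were seen. Planned settings were other scalings and filters, the replicate number as a block, a smaller pseudocount (0.1), quality weights, length and GC correction and leaving out each library. Removing both trends over 8 libraries, and leaving out Etv5 shRNA library 3 with 1 other, were added after seeing the data.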

Additional observations from a re-analysis of the deposited data

Results flagged for a closer look

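Each group of 4 libraries was screened, for each of the 50 factors, for a single value lying far outside its group (Dixon's test at the 95% level, which chance passes in about 1 of 20 groups). Of 100 groups 16 passed, where chance gives about 5, and in 12 of them it was Etv5 shRNA library 3. It was the highest of its group for Fbl (133, the others at most 48.9), Nhp2 (312, at most 83.4), Npm1 (440, at most 325) and Utp3 (45.2, at most 28.0). It was the lowest for Ddx21 (25.5), Utp18 (10.9), Utp20 (4.58), Heatr1 (3.64), Tsr1 (18.7), Nol6 (5.6), Nol9 (12.1) and Polr1a (5.82). Control library 3 was far from its group for Fbl (60.0) and Wdr75 (18.0), as the highest, and for Nol6 (14.5), as the lowest. Control library 2 was the lowest for Utp6 (14.3, the others 14.8 to 14.9), a gap that is small in itself.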

How the results depend on the processing

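Read depth is unknown, so no counting error can be given, and differences of the size seen here, mostly under 1.5-fold, were resolved for few genes. Over 8 libraries none of the 50 factors was called under median-of-ratios scaling, equal sums, either other filter, a pseudocount of 0.1 or the replicate number as a block, nor when any 1 library other than Etv5 shRNA library 3 was left out (range 0 to 13 with that one). Quantile normalisation called 1 (Rrp12), length correction 1 (Nop56), length and GC correction 6 and array quality weights 34, a fit that stopped before convergence. Of all 11731 genes these settings called 8, 27, 63 and 1513 higher. When Etv5 shRNA library 3 was left out, 13, 13, 18 and 23 were called as deposited, with median-of-ratios scaling, with length correction and with length and GC correction, and 18, 8 and 7 with control 3, control 4 or Etv5 shRNA library 4 also left out. In the same order, 127, 134, 473, 702, 416, 63 and 48 of all tested genes were called higher. The median of the 50 was 0.36 with median-of-ratios scaling and 0.30 with length correction, and 0.12 with equal sums, in place of 0.20, and stayed positive in every fit.

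Over all genes 58 were called, against 37 with a pseudocount of 0.1, 3183 with quality weights, 139 with length correction, 212 with length and GC correction, and 20 to 368 when 1 library was left out. Without Etv5 shRNA library 3 the counts were 370 with median-of-ratios scaling, 1035 with length correction and 1425 with length and GC correction; with a further library left out they were 148, 118, 1024 and 240 for controls 1 to 4 and 97, 98 and 186 for Etv5 shRNA libraries 1, 2 and 4. Of the 123 other genes none was called over 8 libraries, 51 were with quality weights (48 higher), and 0 to 1 with 1 library left out. When Etv5 library 3 was left out, 1 was called with median-of-ratios scaling, 9 with length correction, 19 with length and GC correction, 15 without control 3 as well, and 1 without control 1 or Etv5 shRNA library 4. Of these, the 9, 18 of the 19 and the 15 were higher, where 4.05%, 6.01% and 3.59% of all genes were called higher.

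Npm1 turned to -0.03 with equal sums and -0.07 with quantile normalisation, to -0.06 and -0.03 without Etv5 shRNA library 3 or control 4 (range -0.06 to 0.19 over all 8), and without Etv5 shRNA library 3 to -0.05 and -0.03 with median-of-ratios scaling and both trends removed and to -0.10, -0.05, -0.15, -0.06, -0.07 and -0.04 when control 1, 2 or 4 or Etv5 shRNA library 1, 2 or 4 was also left out. Polr1a turned to 0.12, 0.11, 0.17, 0.16 and 0.15 with median-of-ratios scaling, quantile normalisation, quality weights, length correction and both trends removed, to 0.02, 0.05 and 0.21 without control 1, control 4 or Etv5 shRNA library 3 (range -0.15 to 0.21 over all 8 single libraries left out), and without Etv5 library 3 to 0.22 with median-of-ratios scaling, 0.09 with either correction, and 0.26, 0.20, 0.09, 0.29, 0.19, 0.21 and 0.23 with 1 more left out. Nhp2 turned to -0.02 and -0.06 without Etv5 library 3 and control 1 or Etv5 shRNA library 4. The cause of these changes was not tested.

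With the replicate number as a block 0 of the 50 factors and 51 of all genes were called. Deviations of libraries with the same number correlated at 0.549, 0.0924, 0.794 and 0.51. The libraries numbered 3 correlated best with each other. Not every library correlated best with its own number, so the numbers were not taken as pairs. The block was not fitted without Etv5 shRNA library 3, and control library 3 was kept in the main fit without it.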
